A study of Saccharomyces cerevisiae with 17 samples.

Results

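A yeast strain that overexpresses the flocculin gene FLO1 was set against its wild type parent in ground cultures, on the 3 arrays titled FLO1 Ground and the 3 titled WT Ground. These are 6 of the 17 arrays of a study that grew 3 Saccharomyces cerevisiae strains on the International Space Station and on the ground. All strains derive from BY4742, a laboratory haploid of mating type alpha that carries deletions in HIS3, LEU2, LYS2 and URA3. The FLO1 Ground group is labelled a BY4742 strain with FLO1 overexpression, and the WT Ground group is labelled BY4742 WT. A further ground group of 3 arrays, labelled BY4742::FLO8, is used below as another strain that shares no array with the wild type. Ground cultures were set up after the flight in an incubator that replayed the logged temperatures. They grew for 72 h at 23 °C in rich YPD medium, and were filtered and fixed in RNAlater. The sample records of all groups, ground ones included, give a medium injection 5 days after launch. The labels name neither the promoter nor the vector behind the overexpression, nor whether the strain is 1 clone. Nothing in them tells whether the replicates came from independent cultures. The p-values therefore measure the spread among these arrays, which may be technical.

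Flocculins are lectin-like proteins held in the yeast cell wall by a glycolipid (GPI) anchor, and they bind mannose chains on neighbouring cells so that cells clump into flocs. FLO1, FLO5, FLO9 and FLO10 mediate cell to cell binding, while FLO11 serves adhesion to surfaces, invasive growth and biofilms. In the laboratory lineage of BY4742 the activator gene FLO8 carries a nonsense mutation, and flocculation is weak. Mating cells use another set of adhesins, the agglutinins, which pheromone signalling raises.

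RNA was hybridised to Affymetrix Yeast Genome 2.0 arrays, and levels are log2 values of probe sets, 5449 of which stand for 1 gene each. A level of 4.61, the 95th percentile of the fission yeast probe sets on the same arrays, marks background, and 63 genes had a mean below it. The medians over S. cerevisiae probe sets differed by 0.02 log2 between the groups (exact permutation test, two-sided p = 0.3, where 0.1 is the smallest p that 3 against 3 arrays allow). RNA quality, read as the signal of 3 prime minus 5 prime probe sets of 7 control genes, was 1.08 ± 0.07 in FLO1 Ground and 1.09 ± 0.05 in WT Ground (SD, n = 3 each; exact permutation p = 0.9).

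WT Ground replicate 3 stood apart from the other arrays. Its level correlated at 0.965 and 0.967 (Pearson r across genes) with the other WT arrays, which correlated at 0.992 with each other. With the 3 FLO1 Ground arrays it correlated at 0.978 to 0.980, and these correlated at 0.995 to 0.996 among themselves. The results below are therefore given with all 6 arrays and, for the genes and lists that move most, again without that array. The array carries no label that sets it apart, and its removal leaves the wild type spread to 2 arrays.

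With all 6 arrays, FLO1 and FLO9 were the 2 genes called at an adjusted p under 0.05 (limma, Benjamini-Hochberg over 5449 genes), which is 0.0367% of the genes tested, and both were higher in the FLO1 strain. FLO1 (YAR050W, chromosome I) read 12.90, 12.65 and 12.54 in the FLO1 Ground arrays, against 8.20, 8.46 and 8.74 in the WT Ground arrays. The lowest FLO1 array lay above the highest WT array by far more than the spread within either group. The difference was 4.23 (SE 0.17, 95% interval 3.84 to 4.62), an 18.8-fold higher level, with an adjusted p of 1.52e-04. FLO9 (YAL063C, chromosome I), a flocculin closely related to FLO1, read 12.91, 12.83 and 13.03 in FLO1 Ground and 10.76, 10.74 and 10.44 in WT Ground. Again every FLO1 array lay above every WT array, and the difference was 2.27 (SE 0.12, adjusted p = 7.76e-04), or 4.84-fold. The FLO9 probe set is of a type that can read several related genes, and the share of FLO1 transcripts in its signal was not tested. FLO1 kept its call in 19 of 19 alternative settings, with differences from 4.10 to 4.41, and FLO9 in 18 of the 18 that hold its probe set, from 2.17 to 2.33. FLO5 has no probe set under its own name.

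The rise of FLO1 did not extend to a called change at neighbouring genes. Among the 5 annotated genes on each side of FLO1, 9 have a probe set, with differences from −0.38 to 0.45, and 0 of them passed. The largest was that of PRM9, a pheromone-regulated membrane protein, at 0.45 (unadjusted p = 0.0194, adjusted p = 0.416). Around FLO9, all 10 neighbours were measured, with differences from −0.13 to 0.25, and 0 passed. Without WT Ground replicate 3, 3 of these 19 neighbours were called, PRM9 higher and YAR068W and ECM1 lower, where 16.1% of all genes were. Over whole chromosomes the median differences ran from −0.01 on chromosome V to 0.06 on chromosome I.

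A probe set outside the gene table separated the strains completely. It is 1 of 47 reporter probe sets, which the array's annotation pairs with no yeast gene, and it read 13.80, 13.71 and 13.87 in FLO1 Ground, against 3.73, 3.48 and 3.84 in WT Ground. All WT values lay below the background level and all FLO1 values near the top of the scale. The same split held for all 17 arrays, with 13.71 to 13.96 in the 5 FLO1 arrays of ground and flight and 3.48 to 3.84 in the 12 others.

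**Figure D1:**
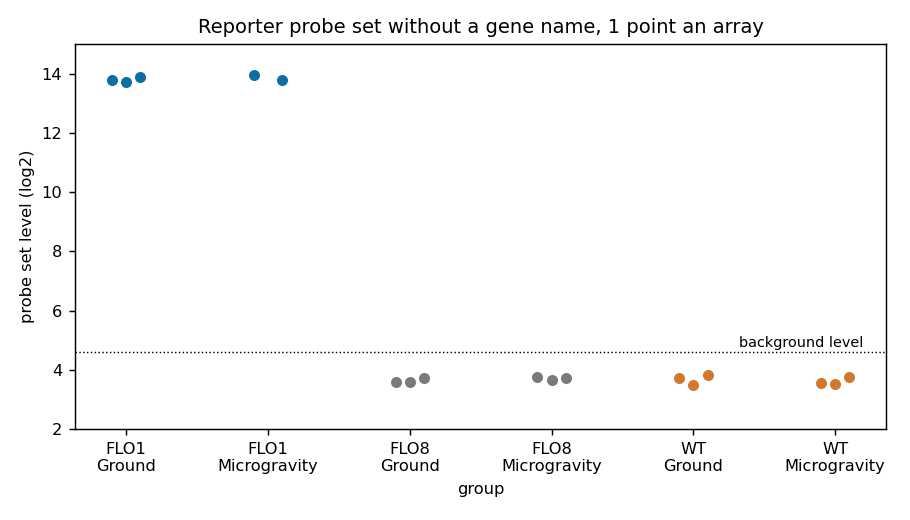
Level (log2) of the reporter probe set without a gene name in each of the 17 arrays, by group, 1 point an array, with the background level dotted. The 5 arrays of the FLO1 strain sit between 13.71 and 13.96, and the 12 arrays of the other strains sit below background, between 3.48 and 3.84.

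The other 6 flocculins and adhesins measured did not pass the test with all 6 arrays. FLO11 read 8.86, 8.70 and 8.98 in FLO1 Ground and 8.49, 8.67 and 8.54 in WT Ground, so its groups are only just separate, with a difference of 0.28 (95% interval 0.01 to 0.55, adjusted p = 0.457). FIG2, an adhesin of mating cells, differed by 0.30 (interval 0.06 to 0.53, adjusted p = 0.416), again without overlap. FLO10 read 9.97, 9.82 and 10.05 against 9.71, 9.89 and 9.12, and its interval ran from −0.10 to 0.84. Non-overlapping levels with FLO1 above, as 4 of the 8 listed genes had, occurred in 11.2% of all genes. The 4 were FLO1, FLO9, FLO11 and FIG2.

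The sexual agglutinins did not pass with all 6 arrays. SAG1, the alpha agglutinin, read 11.91, 12.02 and 11.83 in FLO1 Ground and 11.27, 11.31 and 11.90 in WT Ground. Only WT Ground replicate 3 reached the FLO1 range, and the difference of 0.43 (adjusted p = 0.469) became 0.63 without that array (adjusted p = 0.0192). AGA2, the binding subunit of the a agglutinin, was 0.13 higher with all arrays and 0.30 higher without replicate 3 (adjusted p = 0.783 and 0.0446), and it was called in 1 of 19 alternatives. AGA1, its anchor subunit, differed by −0.05 (interval −0.49 to 0.39). The median difference of the 8 flocculins and adhesins was 0.34, against 0.02 over all genes. The 8 include FLO9 and FLO1, the overexpressed gene itself.

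**Figure D2:**
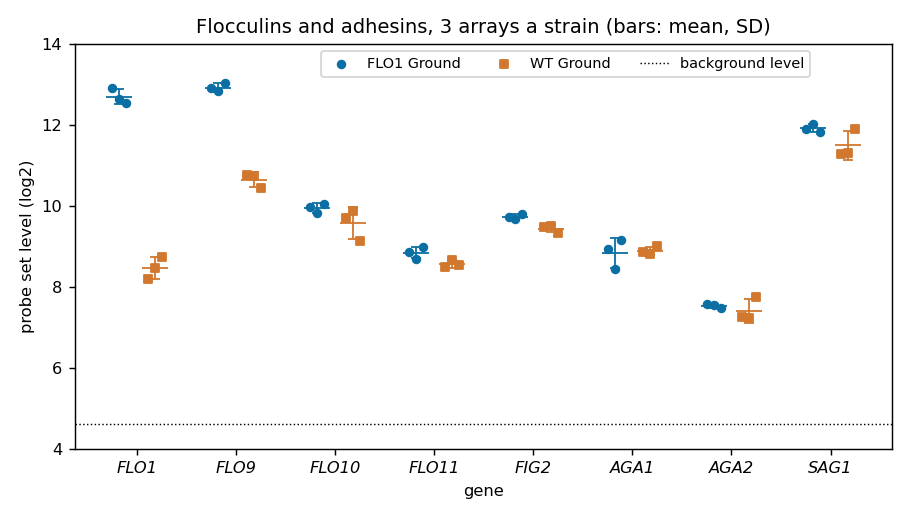
Level (log2) of the 8 flocculins and adhesins with a probe set, in the 3 FLO1 Ground arrays (circles, left) and the 3 WT Ground arrays (squares, right), with mean and SD as bars. FLO1 and FLO9 are separated by several log2 units, and the other 6 genes differ by less than 0.5 log2 between the groups.

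Regulators of the flocculin genes were measured for 26 of 27 listed genes, and 0 passed with all 6 arrays. At an unadjusted p under 0.05 there were 2 higher and 5 lower, where the shares over all genes are 5.18% and 5.40%. RAS1, a GTPase that activates adenylate cyclase, had the lowest p of the list: it read 10.46, 10.30 and 10.48 in FLO1 Ground and 9.22, 9.45 and 9.96 in WT Ground. All FLO1 arrays lay above all WT arrays, with a difference of 0.87 (SE 0.19, adjusted p = 0.368), and 1.07 without WT Ground replicate 3 (adjusted p = 0.00831). MIG1, a zinc finger repressor of glucose-repressed genes, read 10.56, 10.31 and 10.41 against 11.32, 11.20 and 10.73, a difference of −0.66 (adjusted p = 0.406). NRG1 and NRG2, repressors that also act on FLO11, differed by −0.43 and −0.58 (adjusted p = 0.416 and 0.444), both without overlap. Leaving out WT Ground replicate 3, all 3 were called lower (adjusted p = 0.0149, 0.028 and 0.0353). The whole list then had 3 genes called higher and 4 lower. These are 11.5% and 15.4% of it, against 5.87% and 10.2% of all genes. TEC1, a factor of filamentous growth, differed by 0.32 (adjusted p = 0.416) and FLO8 itself by 0.07 (adjusted p = 0.876).

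The differences of the 4 genotype markers ran from −0.23 to 0.03 log2, and only URA3 had levels that did not overlap between the groups. URA3 read 3.26 to 3.50 in FLO1 Ground and 3.55 to 3.73 in WT Ground, and LYS2 read 3.40 to 3.86 in FLO1 Ground and 3.58 to 4.08 in WT Ground, all below background. LEU2 lay just above it, at 5.03 to 5.13 in FLO1 Ground and 5.06 to 5.27 in WT Ground. HIS3 read 9.79 to 10.01 in FLO1 Ground and 9.81 to 9.92 in WT Ground, so its probe set does not show the deletion that BY4742 is known to carry, and whether the probes lie inside the deleted stretch was not examined. None of the 4 differed between the groups at an adjusted p under 0.05.

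Both mating type programmes gave signal. The 5 alpha cell markers on the array had levels well above background, as for the pheromone gene MF(ALPHA)1 at 11.99, 11.89 and 12.23 in FLO1 Ground and 12.01, 12.38 and 11.89 in WT Ground. Markers of a cells, the opposite type, were above background too: the receptor gene STE2 read 8.07, 8.24 and 8.28 in FLO1 Ground and 7.74, 7.82 and 7.67 in WT Ground. Its groups did not overlap, with a difference of 0.45 (adjusted p = 0.390). Among the 7 a cell markers 5 were higher, 2 lower and 0 passed, and the list mean was 8.16 to 8.23 in FLO1 Ground and 8.04 to 8.18 in WT Ground. MFA1, a pheromone gene of a cells, was lower, by −0.51 to −0.35 over 19 alternatives, and was called in 2. Differences over the alternatives ran from −0.24 to 0.01 for MFA2, 0.11 to 0.21 for STE6, 0.08 to 0.36 for BAR1 and −0.01 to 0.42 for ASG7. Those of the alpha marker HMLALPHA1 ran from −0.03 to 0.32. None of these 5 was called in any alternative. MF(ALPHA)2 and STE3, an alpha pheromone gene and the receptor for a factor, were 0.57 and 0.31 higher (adjusted p = 0.416 each). Of the alpha markers 3 were called higher without WT Ground replicate 3, and of the a markers 2 higher and 1 lower, where 5.87% of all genes were called higher and 10.2% lower. The part of these markers in the differences of the pheromone genes below was not tested.

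Genes that mating pheromone induces, and those that act in cell fusion, lay on balance higher in the FLO1 strain, although 0 of the 25 passed with all 6 arrays. Their median difference was 0.27, with 16 genes higher and 9 lower. At an unadjusted p under 0.05 there were 11 higher and 2 lower, and 10 lay above all WT arrays without overlap and 2 below, where 11.2% and 7.73% of all genes do. PRM1, which promotes fusion of the plasma membranes of mating cells, read 9.38, 9.38 and 9.44 in FLO1 Ground and 8.62, 8.54 and 8.18 in WT Ground. The 3 FLO1 arrays were nearly alike and lay above every WT array. The difference was 0.96 (SE 0.13, adjusted p = 0.309), and PRM1 was called in 4 of 19 alternatives, where adjusted p ran from 0.0038 to 1.00.

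FIG1, a membrane protein of calcium entry and fusion in mating, read 7.52, 7.49 and 7.25 in FLO1 Ground and 6.87, 6.80 and 6.47 in WT Ground. PRM2 and PRM6, pheromone-regulated membrane proteins, had the same order, with no overlap between the groups. The differences were 0.71, 0.67 and 0.61 for FIG1, PRM2 and PRM6 (adjusted p = 0.368 each). Removal of WT Ground replicate 3 left 7 of the 25 called higher and 1 lower, where 5.87% and 10.2% of all genes were called. The 7 were PRM1, FIG1, PRM2, PRM6, PRM9, FUS1 and PRM8. FUS1 and PRM8 overlapped between the groups with all arrays, since WT Ground replicate 3 was their highest WT array at 9.11 and 11.39. The gene called lower was SPA2, a scaffold of polarised growth, at 7.55, 7.63 and 7.58 in FLO1 Ground and 7.96, 8.04 and 8.03 in WT Ground, a difference of −0.42 (adjusted p = 0.368 with all arrays, 0.0262 without replicate 3). PRM10, a pheromone-regulated protein, had the largest difference of the list in size and it was negative: it read 8.98, 7.68 and 7.95 in FLO1 Ground and 9.92, 8.85 and 8.83 in WT Ground. These groups overlapped, and the difference was −0.996 with all arrays and −1.18 without replicate 3 (adjusted p = 0.463 and 0.0812).

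**Figure D3:**
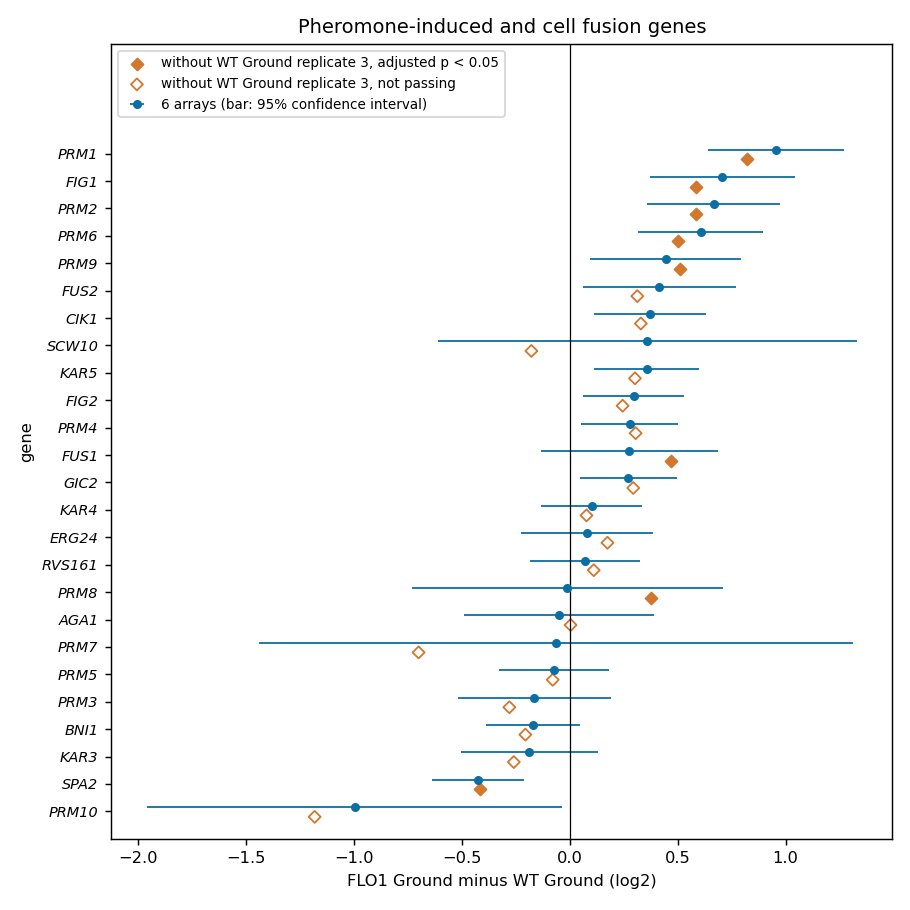
Difference FLO1 Ground minus WT Ground (log2) of the 25 pheromone-induced and cell fusion genes, with all 6 arrays (circles, bars are 95% confidence intervals) and without WT Ground replicate 3 (diamonds, filled where the adjusted p is under 0.05). With all arrays 16 genes lie above 0, led by PRM1 at 0.96, PRM10 lies farthest below it at −0.996, and 7 genes pass as higher without replicate 3.

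The signalling pathway upstream of these genes did not move as a block. Of its 19 genes 12 were higher and 7 lower, with a median of 0.14 and 0 called. FUS3, the mitogen-activated kinase of the mating pathway, read 10.26, 10.26 and 10.30 in FLO1 Ground and 9.81, 9.84 and 9.66 in WT Ground, a difference of 0.50 (SE 0.10, adjusted p = 0.368). STE4 and STE18, the beta and gamma subunits of the receptor's G protein, had opposite signs, at 0.33 and −0.43 (adjusted p = 0.416 each). STE12, the transcription factor at the end of the pathway, differed by −0.30. All 4 were called with these signs without WT Ground replicate 3, which makes 2 higher and 2 lower, 10.5% of the list each way, against 5.87% and 10.2% of all genes.

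Flocculins pass through the secretory pathway, where they receive mannose chains and a GPI anchor, before they are linked to wall glucan. The lists for these steps had medians near that of all genes with all 6 arrays, at 0.09 for 29 genes of GPI anchor synthesis and wall attachment, 0.07 for 54 genes of mannosylation and N-glycosylation, and −0.03 for 27 genes of folding and translocation in the endoplasmic reticulum. None had a called gene. Leaving out WT Ground replicate 3, the GPI list had 2 called higher and 3 lower (6.9% and 10.3% of it) and the glycosylation list 4 higher and 3 lower (7.41% and 5.56%). These shares are near the 5.87% and 10.2% of all genes. OST6, a subunit of the oligosaccharyltransferase, differed by 0.40 with all arrays and ANP1, a mannosyltransferase subunit of the Golgi, by −0.33 (adjusted p = 0.416 and 0.448).

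The wall itself gave few differences. Among 23 structural wall mannoproteins 7 were higher and 16 lower, with a median of −0.04, and among 35 genes of glucan and chitin synthesis and remodelling 21 were higher and 14 lower, with a median of 0.02. Without WT Ground replicate 3 the glucan and chitin list had 13 higher and 22 lower, with a median of −0.10 and 3 called lower, 8.57% of the list against 10.2% of all genes. EXG1, the major exoglucanase of the wall, read 10.17, 9.97 and 10.36 in FLO1 Ground, against 10.86, 10.86 and 10.87 in WT Ground. Here WT Ground replicate 3 lay with the other WT arrays. The difference was −0.70 with and −0.69 without it (adjusted p = 0.368 and 0.0232). The fall in adjusted p thus owes little to the levels of EXG1 in that array. The cell wall integrity pathway had a median of 0.10 over 25 genes, 1 of which was called, lower, when that array was left out.

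Beyond FLO1 and FLO9, the genes with the largest non-overlapping differences at an unadjusted p under 0.05 did not pass with all 6 arrays, at adjusted p-values from 0.309 to 0.448. On the higher side they were PRM1, COS12 (0.93), RAS1, YGR109W-A (0.86), YIL082W-A (0.84), FIG1, IMA5 (0.70), PRM2, PMU1 (0.65) and NDJ1 (0.63). COS12 belongs to the subtelomeric COS family, of which 9 genes were measured with a median of 0.13. YGR109W-A and YIL082W-A, which the annotation gives only by locus, read 12.48 to 13.13 and 12.48 to 12.97 in FLO1 Ground, against 11.86 to 12.11 and 11.84 to 12.09 in WT Ground. Both probe sets, like that of FLO9, are of a type that can read several related genes. Whether their similar levels come from the same transcripts was not tested. IMA5 encodes an isomaltase, and NDJ1 a meiotic telomere protein that lay close to the low end of the scale.

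On the lower side the largest difference was that of STL1, a glycerol importer of the plasma membrane. It read 9.48, 7.63 and 8.34 in FLO1 Ground and 11.17, 10.07 and 10.81 in WT Ground. The groups did not overlap, yet the FLO1 arrays alone spread widely, and the difference was −2.20 (SE 0.48, 95% interval −3.33 to −1.08, adjusted p = 0.368). STL1 was called in 3 of 19 alternatives. MIG2, a repressor related to MIG1, read 7.54, 6.57 and 6.77 in FLO1 Ground and 8.89, 8.01 and 7.97 in WT Ground, a difference of −1.33 (adjusted p = 0.390). AQR1, a multidrug transporter, differed by −1.10 and HXT3, a low-affinity glucose transporter, by −1.09 (adjusted p = 0.368 and 0.416). The others were YMR175W-A (−1.28), YLR297W (−0.99), PFK27 (−0.96), YDR246W-A (−0.96), ROX1 (−0.92), YLR363W-A (−0.85), FTR1 (−0.83) and OYE3 (−0.83). PFK27 makes an allosteric activator of glycolysis, ROX1 represses hypoxic genes and FTR1 is the high-affinity iron permease. Without WT Ground replicate 3, every one of these 12 genes except YDR246W-A was called lower, where 10.2% of all genes were. The 12 were chosen for large non-overlapping differences on arrays that this fit also uses, so these calls are no separate evidence. FTR1 and OYE3 were each called in 1 of 19 alternatives.

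Genes of ribosome production were lower in the FLO1 strain than in 2 of the 3 WT arrays. Ribosome biogenesis factors, which make and assemble the subunits, had a median difference of −0.32 over 123 genes, with 9 higher and 114 lower and 0 called. The mean level of the list was 9.13, 8.75 and 8.98 in FLO1 Ground and 9.54, 9.48 and 8.87 in WT Ground. WT Ground replicate 3 thus lay among the FLO1 arrays. At an unadjusted p under 0.05 25 of the 123 were lower and 0 higher, and 15 lay below all WT arrays, against 5.40% and 7.73% of all genes. Without replicate 3 the median was −0.48 and 74 were called lower and 0 higher, where 10.2% and 5.87% of all genes were. RRP7, a factor of small subunit processing, read 9.34, 9.02 and 9.13 in FLO1 Ground and 10.04, 9.85 and 9.48 in WT Ground. All WT arrays lay above all FLO1 arrays for this gene, with a difference of −0.62 (adjusted p = 0.411).

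Cytosolic ribosomal protein genes had the same pattern, with a median of −0.25 over 127 of 137 listed genes, 114 of them lower and 0 called. The list mean was 12.18, 12.09 and 12.23 in FLO1 Ground and 12.64, 12.51 and 12.03 in WT Ground, where replicate 3 was the lowest of the 6 arrays. Leaving it out gave a median of −0.41 and 78 genes called lower, 61.4% of the list against 10.2% of all genes. RPS16A, a small subunit protein with a close paralog that can share signal, differed by −0.51 (SE 0.11, adjusted p = 0.368) without overlap. RNA polymerases I and III, which transcribe ribosomal and transfer RNA, had a median of −0.19, and of their 27 genes 1 was called higher and 8 lower when replicate 3 was left out, 3.7% and 29.6% of the list against 5.87% and 10.2% of all genes. Translation factors had a median of −0.10 over 36 genes, and mitochondrial ribosomal proteins −0.07 over 66.

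**Figure D4:**
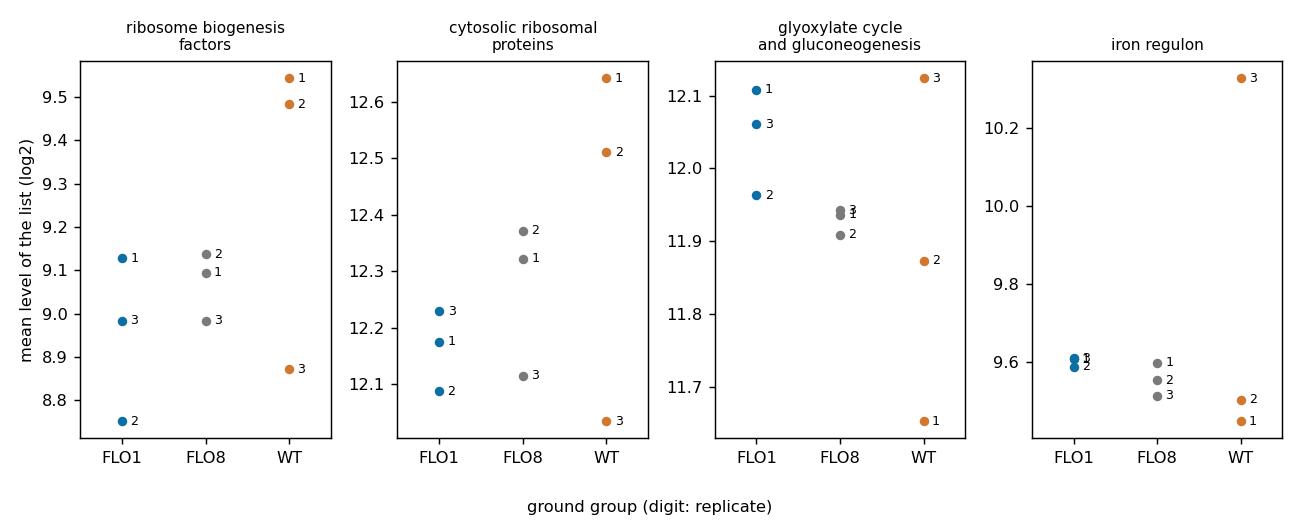
Mean level (log2) of 4 gene lists in each ground array of the FLO1, FLO8 and WT strains, with the replicate number beside each point. WT replicate 3 lies away from WT replicates 1 and 2 in all 4 lists, with the lowest level of its group for both ribosome lists and the highest for glyoxylate cycle and iron genes.

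The FLO1 strain and WT Ground replicate 3 also lay on the same side of the other WT arrays for genes of growth on poor carbon sources. Glyoxylate cycle and gluconeogenesis genes had a list mean of 12.11, 11.96 and 12.06 in FLO1 Ground and 11.65, 11.87 and 12.12 in WT Ground. Their median difference was 0.10 over 27 genes, 22 of them higher and 0 called, and 0.18 with 8 called higher once replicate 3 was left out, 29.6% of the list against 5.87% of all genes. JEN1, the lactate and pyruvate importer, was one that did not rest on that array: it read 12.80, 12.62 and 12.90 in FLO1 Ground and 12.04, 12.30 and 12.30 in WT Ground, a difference of 0.56 (SE 0.12, adjusted p = 0.370). SFC1, the mitochondrial succinate and fumarate carrier, did rest on it, at 11.96, 10.99 and 11.58 against 9.64, 10.50 and 11.79. Its difference was 0.87 with and 1.44 without replicate 3 (adjusted p = 0.566 and 0.028). Hexose transport and glucose sensing had no common direction over 37 genes, with a median of 0.03. HXT2, a high-affinity glucose transporter, differed by −0.75 and GAL2, the galactose transporter, by 0.52 (adjusted p = 0.390 each), both without overlap.

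Metal genes were among those where WT Ground replicate 3 decided the direction. The iron regulon had a list mean of 9.61, 9.59 and 9.61 in FLO1 Ground and 9.45, 9.50 and 10.33 in WT Ground. Its median difference was −0.10 with all arrays and 0.14 without replicate 3. SIT1, a siderophore transporter, read 10.47, 10.49 and 10.72 in FLO1 Ground and 9.56, 9.78 and 13.07 in WT Ground, so that its difference was −0.24 with and 0.89 without that array (adjusted p = 0.930 and 0.0176). Zinc homeostasis genes had a median of −0.25 over 18 genes with all arrays and 0.03 without it. These lists gave 0 called genes with all 6 arrays.

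Most other lists stayed near the median of all genes, 0.02. Heat shock proteins and chaperones had a median of 0.00 over 32 genes, genes that Msn2 and Msn4 control 0.01 over 44, the tricarboxylic acid cycle and respiratory chain −0.02 over 55, ergosterol synthesis 0.03 over 30 and the proteasome −0.08 over 37. Of the proteasome genes 5 were higher and 32 lower with all arrays, and 18 higher and 19 lower without WT Ground replicate 3. MSN2, the stress factor itself, read 9.16, 8.80 and 9.10 in FLO1 Ground and 9.91, 9.68 and 9.69 in WT Ground, a difference of −0.74 (SE 0.13, adjusted p = 0.368) with no overlap. Trehalose and glycogen genes were higher in 21 of 22 cases, by a median of 0.10, and 0 of them passed with or without WT Ground replicate 3. Autophagy genes had a median of 0.05 over 39 genes, and 6 were called higher without that array, 15.4% of them against 5.87% of all genes.

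**Figure D5:**
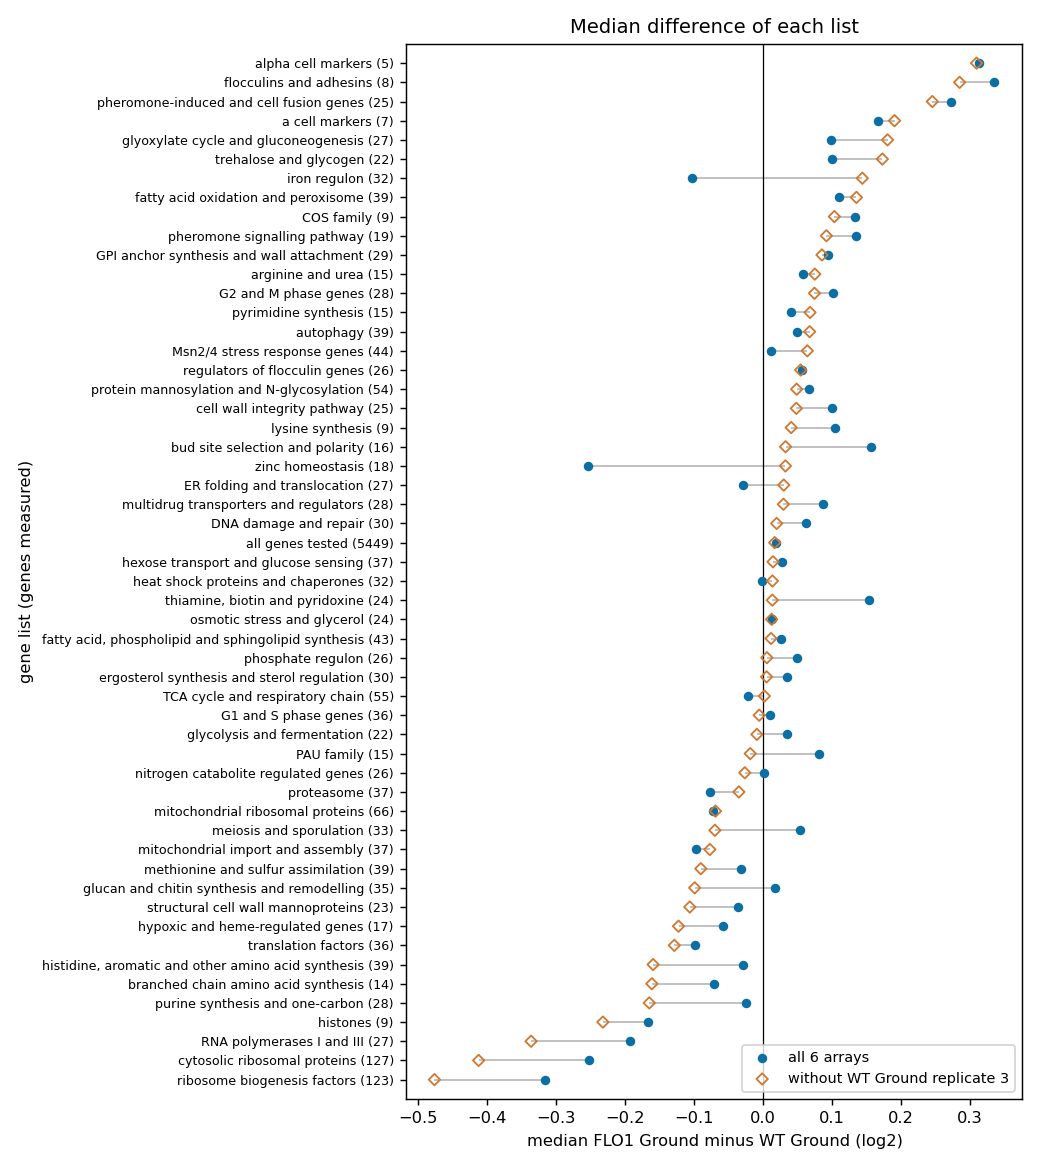
Median difference FLO1 Ground minus WT Ground (log2) of each gene list with at least 5 genes measured, with all 6 arrays (circles) and without WT Ground replicate 3 (diamonds), the number of genes in brackets. Ribosome biogenesis factors (−0.32 and −0.48) lie lowest in both settings, cytosolic ribosomal proteins (−0.25 and −0.41) are next to them with zinc homeostasis (−0.25 and 0.03) at the same level with all arrays, and the iron regulon and zinc lists move the most between the settings.

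Over the whole table, leaving out WT Ground replicate 3 raised the number of genes called to 878, which is 16.1% of those tested, with 320 higher and 558 lower. Of these, 55 differed by at least 1 log2, 4 higher and 51 lower. The 4 were FLO1, FLO9, SFC1 and RAS1. In 824 of the 878, or 93.8%, the array left out lay on the FLO1 side of the mean of the other WT arrays, against 73.5% of all genes. That mean enters both quantities, so the shares are high in part by construction. In 294 of the 878 all 3 WT arrays lay apart from all FLO1 arrays, as they did in 18.9% of all genes. The adjusted p of a gene also depends on the spread and the p-values of all other genes. The 878 therefore include genes such as EXG1 and SPA2, whose own difference barely changed. With all 6 arrays weighted by their fit, the left-out array received a weight of 0.124, against 0.841 to 2.87 for the others, and 184 genes were called, all of them among the 878.

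The strain labelled FLO8 gave a comparison that does not depend on the WT arrays, though it shares the FLO1 arrays with the one above. It is no wild type: FLO11 read 8.86, 8.70 and 8.98 in FLO1 Ground and 12.75, 12.53 and 11.24 in FLO8 Ground, and the FLO8 gene itself read 9.37, 9.49 and 9.24 in FLO1 Ground and 7.87, 7.83 and 7.58 in FLO8 Ground. The label does not say what its notation stands for, and whether this probe set reads the transcript of the construct was not tested. Between these groups 22 genes were called, 0.404% of those tested, with 12 higher in the FLO1 strain (0.22%) and 10 lower (0.184%). Leaving out FLO8 Ground replicate 3 gave 153 called genes. FLO1 was 2.75 higher, since the FLO8 strain read 9.87, 10.20 and 9.76, a level above that of the wild type arrays. FLO9 was 1.60 higher (adjusted p = 1.55e-04 for FLO1 and 6.07e-04 for FLO9).

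The 25 pheromone-induced and cell fusion genes had a median of 0.09 against FLO8 Ground, where it was 0.27 against WT Ground. Of the 25, 3 were called higher and 1 lower, where 0.22% and 0.184% of all genes were. Of the mating genes, PRM1 was higher in FLO1 Ground than in FLO8 Ground by 0.79 (SE 0.07, adjusted p = 0.00512). The FLO8 Ground arrays read 8.64, 8.53 and 8.64, close to WT Ground replicates 1 and 2. FIG1 was higher by 0.93 and PRM6 by 0.66 (adjusted p = 0.00691 and 0.0103). PRM1 was called in 7 of 7 alternatives of this comparison, FIG1 in 6 and PRM6 in 3. RAS1 was 0.69 higher (adjusted p = 0.0377), but was called in 1 of the 7. Other genes of the group did not follow: PRM7 was 1.79 lower in FLO1 Ground (adjusted p = 0.0103) and FUS3 0.45 lower (adjusted p = 0.0429), the reverse of its sign against WT Ground. PRM7 was called in 4 of the 7 alternatives and FUS3 in 1. AGA2 was 1.38 higher, at 7.57, 7.56 and 7.48 in FLO1 Ground and 5.98 to 6.49 in FLO8 Ground. It read 7.25, 7.22 and 7.75 in WT Ground, so FLO8 Ground was the group with the low level. Of the 22 genes, 11 were also called against WT Ground without replicate 3, where 16.1% of all genes were, and 9 of them had the same sign. Both comparisons use the same FLO1 Ground arrays, so shared calls and signs arise in part by construction.

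Against FLO8 Ground, the median difference of ribosome biogenesis factors was −0.13 and that of cytosolic ribosomal proteins −0.12, with 0 genes called in either list. FLO8 Ground had list means of 9.09, 9.14 and 8.98 for ribosome biogenesis, overlapping with those of FLO1 Ground and below WT Ground replicates 1 and 2. The glyoxylate cycle list had a median of 0.10 and 0 called genes. No gene named above as lowest against WT Ground was called here. The differences FLO1 Ground minus FLO8 Ground were 0.51 for STL1, 0.53 for MIG2 and 0.25 for YMR175W-A. Those of AQR1 and YLR297W were −0.37 and −0.34. For STL1, MIG2, YMR175W-A and AQR1, every FLO8 Ground array also lay below every WT Ground array.

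The level of FLO1 across the 9 ground arrays was followed most closely by FLO9 (Pearson r = 0.982), MSN1 (0.923), PRM1 (0.918), CUL3 (0.916) and ECM10 (0.915). These correlations describe 9 arrays of 3 strains, which form separate groups, and carry no test. In MSN1, a transcriptional activator, the difference behind the value was 0.11 between FLO1 Ground and WT Ground.

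Whether the strain difference on the ground differed from that in flight was tested with an interaction term over all 17 arrays. The flight groups held 2 arrays of the FLO1 strain and 3 of the wild type. By limma 0 genes were called, 191 had an unadjusted p under 0.05 (3.51%), and with the 11 arrays of the FLO1 and WT strains alone the count was also 0. FLO1 was higher than wild type by 4.23 on the ground and by 4.08 in flight, and FLO9 by 2.27 and 2.36. For PRM1 the ground difference was 0.96 and the flight difference 0.53, while those of FIG1 were 0.71 and −0.11 and those of RAS1 0.87 and −1.13 (interaction adjusted p = 0.994 each). The 25 pheromone-induced and fusion genes had a median of 0.27 on the ground and 0.06 in flight. Ribosome biogenesis factors had a ground median of −0.32 and a flight median of −0.26, and cytosolic ribosomal proteins a ground median of −0.25 and a flight median of 0.08, a change of sign. The differences between these medians were not tested. Leaving out FLO1 Microgravity replicate 2 gave 163 called genes, 60 with a larger and 103 with a smaller difference on the ground, and rests the FLO1 flight group on 1 array, which is assumed to vary like the other groups.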

How the data were processed

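The authors deposited log2 probe set levels of 17 Affymetrix Yeast Genome 2.0 arrays. RMA and MAS5 stand in the submitters' processing notes beside affy 1.26.1, an R package, with no role given for MAS5, and no scanner files were used here, so the background correction was not redone. Of 10928 probe sets, 5498 are annotated to 1 S. cerevisiae gene, and for the 47 genes with several the one with the highest mean over all arrays was kept, which left 5449 genes. The build behind the array is not given in the sources used here, so no coordinates are printed. Samples were grouped by title. Differences were fitted to the 6 arrays with limma 3.58.1 in R 4.3.3 (lmFit and eBayes, 4 residual degrees of freedom), two-sided, with Benjamini-Hochberg adjustment over all genes and a threshold of 0.05. The comparison with FLO8 Ground used 6 arrays in the same way, and the interaction all 17. Errors of levels are SD and errors of differences SE. Precision is limited by the number of arrays. The fit was tested on simulated data with independent noise for each gene, which held no array that stands apart as WT Ground replicate 3 does.

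The members and the 55 gene lists were chosen with earlier results of these data known, and 1 list has no gene on the array. Genes are named by rule: all flocculins, adhesins, mating type and auxotrophic markers; in each direction the 12 largest non-overlapping differences above background, called or, failing that, at an unadjusted p under 0.05; up to 4 genes with the lowest p per list; the 5 neighbours on each side of FLO1 and FLO9; and the 5 genes most correlated with FLO1. Other genes were named after their values were seen: SPA2, PRM10, FUS1, PRM8, NRG2, STE12, FLO8, SFC1, SIT1 and the genes named against FLO8 Ground. Alternatives covered the arrays that share the spread, eBayes settings, centring, quantile normalization, array weights, a replicate block, filters, probe set choice, RNA quality as a covariate and leaving out each array. Results of 1 gene and its list are not reported here.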

Additional observations from a re-analysis of the deposited data

Results flagged for a closer look

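A signal appeared in data outside the gene table. Of 3517 probe sets without a gene name, 1 was called between FLO1 Ground and WT Ground over all 10928 probe sets, and it is 1 of the 47 reporter probe sets of the array. It averaged 13.79 ± 0.08 log2 in FLO1 Ground and 3.68 ± 0.18 in WT Ground (SD, n = 3 each), a measured difference of 10.11 (SE 0.11, limma adjusted p = 3.17e-09). The WT values lie below the background level of 4.61, and set against that level FLO1 Ground was at least 9.18 log2 higher, or at least 581-fold. The probe set was at background in all 12 arrays of the other strains. The other probe set of the same reporter read 3.76 to 4.28 in all arrays. At an unadjusted p under 0.05 there were 109 of the unnamed probe sets. What construct the signal comes from was not tested. No gene had an interaction between ground and flight at an adjusted p under 0.05 (191 at an unadjusted p under 0.05). Groups of 3 arrays are too small to test whether an array stands apart by its gap. The distance of WT Ground replicate 3 is therefore described above by its correlations, without such a test.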

How the results depend on the processing

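FLO1 and FLO9 kept direction and call wherever their probe sets were tested. With FLO9's shared probe set left out (probe sets of single genes only), 1 gene was called, higher. The count of 2 called genes held with all 17 arrays in 1 fit, with a trended or robust prior, after median centring or quantile normalization, above background only, with probe sets averaged, with RNA quality as a covariate, and without any 1 of the other 5 arrays; 9 ground arrays in 1 fit gave 3, with PRM1 added. Leaving out 1 array gave 2 to 878 called genes, 2 to 320 higher and 0 to 558 lower, and WT Ground replicate 3 gave each upper end. Array weights called 184 (38 higher, 146 lower). An alternative added after the data were examined, 8 ground arrays without WT Ground replicate 3, called 575 (166 higher, 409 lower), 562 of them among the 878. The labels do not say whether replicate numbers pair these samples. Deviations from the group means correlated at 0.35, −0.32 and −0.22 for numbers 1, 2 and 3. These values cannot decide it, because WT Ground replicate 3 dominates the WT deviations (r = −0.81 and −0.79 with the other WT arrays). The fit with a replicate block called 2 genes higher and 1 lower, STL1. Against FLO8 Ground, 9 ground arrays in 1 fit called 10 genes (7 higher, 3 lower) in place of 22, and leaving out 1 array, added after the data were examined, 8 to 153 (6 to 59 higher, 2 to 94 lower), with the upper ends without FLO8 Ground replicate 3. The interaction gave 0 to 163 called genes when 1 of the 11 FLO1 and WT arrays was left out (0 to 60 higher, 0 to 103 lower), the upper ends without FLO1 Microgravity replicate 2 and 0 without each of the other 10; all but the FLO1 Microgravity arrays were added after the data were examined. List medians changed sign in 11 of 54 lists without WT Ground replicate 3, in 8 without WT Ground replicate 1, in 8 without replicate 2, in 3 to 5 without 1 FLO1 Ground array, and in 5 after median centring. The cause was not tested.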
